A study of Mus musculus with 8 samples.

Results

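The 7 genes described here are those that found, or first mark, the primordial germ cells (PGCs) of the mouse: *Prdm1*, *Prdm14* and *Tfap2c*, which encode the transcriptional determinants of the lineage, and *Dppa3*, *Ifitm1*, *Ifitm3* and *Alpl*, which mark early PGCs. They were chosen by gene symbol and make up 7 of the 25239 symbols in the count tables of this study. All 7 had enough reads to be tested among 14249 genes. Their transcripts were measured by bulk RNA-Seq of whole fetal ovaries at E14.5, in 4 control libraries and 4 *Bmpr1a*-cKO libraries. The control embryos were *Bmpr1a* fl/fl, and the *Bmpr1a*-cKO embryos, their littermates, were *Bmpr1a* fl/fl with Oct4-Cre Cre/WT, a Cre that works in germ cells once tamoxifen is present. Both genotypes were female, on a C57BL/6 background, and both were exposed through the mother to 1 mg 4-hydroxytamoxifen and 0.5 mg progesterone given on the days 9.5, 10.5 and again 11.5 post coitum. The ovaries of 8 embryos per genotype, from 6 litters, were pooled into 4 libraries per genotype, each from the ovary pairs of 2 embryos. The labels do not say which litter a library came from. The controls carried no Cre, so the presence of Cre and the loss of *Bmpr1a* cannot be told apart. The tissue was not sorted, so fewer germ cells and less RNA per germ cell cannot be told apart either.

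PGCs are set aside in the epiblast of the early embryo in response to BMP signals from the neighbouring extraembryonic tissues, received by cells that WNT signalling has made competent. *Prdm1* (also called Blimp1) encodes a repressor that shuts down the somatic programme, *Prdm14* encodes a factor that restores pluripotency and drives epigenetic reprogramming, and *Tfap2c* encodes an AP-2 transcription factor that acts with both. *Dppa3* (Stella) is a classical marker of newly formed PGCs and protects DNA methylation in the zygote. *Ifitm1* and *Ifitm3* (Fragilis) encode interferon-inducible membrane proteins at the PGC surface. *Alpl* encodes tissue non-specific alkaline phosphatase, the enzyme whose staining traditionally reveals PGCs. In the fetal ovary germ cells normally lose this early programme as they leave mitosis and enter meiosis.

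The control libraries held 10622684 to 15365052 counts and the *Bmpr1a*-cKO libraries 8562961 to 14887102. Levels are given as CPM (counts scaled to a common library size) with library sizes scaled by the trimmed mean of M values (TMM), and 3 counts corresponded to 0.189 to 0.358 CPM. The germ cell marker *Ddx4* (also called Mvh) lay at a mean of 142 CPM in control libraries and of 153 CPM in those of *Bmpr1a*-cKO, and 8 listed markers of pregranulosa cells, the supporting cells of the fetal ovary, summed to 1111 to 1574 CPM over the 8 libraries. Both are defining transcripts of the labelled tissue. The reads over *Bmpr1a* itself, with means of 218 CPM for control and 195 CPM for *Bmpr1a*-cKO (Log2FC -0.16, FDR 0.0692, quasi-likelihood test of edgeR), do not check the labels, because the somatic cells keep the gene and the counts cover the whole gene rather than the deleted exon.

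The early PGC genes did not move as one group between the genotypes. *Prdm14*, *Dppa3*, *Ifitm3* and *Alpl* were higher in *Bmpr1a*-cKO ovaries by 5.25-, 2.999-, 2.14- and 1.45-fold, *Prdm1* was 1.37-fold higher, and *Ifitm1* and *Tfap2c* lay at 0.826 and 0.704 of the control level. A differentially expressed gene (DEG) was one with an absolute Log2FC above 0.5 and a false discovery rate (FDR) below 0.05 in edgeR's quasi-likelihood test, adjusted over all 14249 genes. By this rule 4 of the 7 genes (57.1%) were DEGs, all of them higher, against 10.2% of all genes tested, of which 6.11% were higher and 4.06% lower. None was a lower DEG by edgeR or by limma-voom, whereas DESeq2 placed 1 there, *Tfap2c*, and all 7 had an unadjusted p below 0.05. With the FDR alone 6 of the 7 genes passed (5 higher, 1 lower), against 29.8% of all genes (17.3% higher, 12.5% lower). The 4 control and 4 *Bmpr1a*-cKO values did not overlap for 4 of the 7 genes, *Prdm14*, *Dppa3* and *Ifitm3* being higher and *Ifitm1* lower, against 27.9% of all genes. The median Log2FC of the 7 genes was 0.54, and that of all genes tested was -0.0042.

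**Figure D1:**
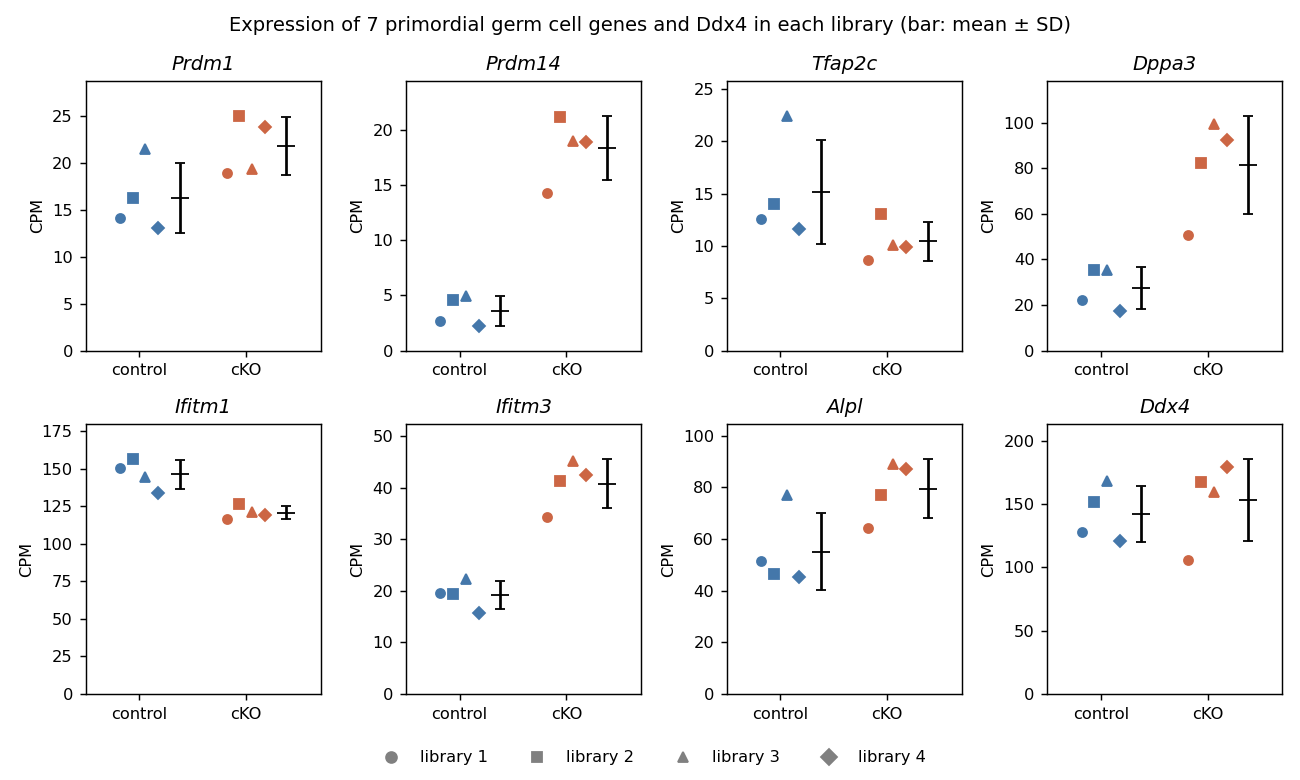
CPM (linear axis from 0) of the 7 early PGC genes and of the germ cell gene Ddx4 in each of the 4 control and 4 Bmpr1a-cKO libraries, with 1 point per library and the mean ± SD of each genotype as a bar. The Prdm14 values lie between 2.21 and 4.96 CPM in control and between 14.3 and 21.2 CPM in Bmpr1a-cKO, while the Prdm1, Tfap2c, Alpl and Ddx4 values of both genotypes overlap.

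Of the 3 determinants, *Prdm14* (chr1:13113457-13127163, minus strand, mm10) changed most. It was read at 2.71, 4.60, 4.96 and 2.21 CPM in control libraries 1 to 4 and at 14.3, 21.2, 18.9 and 18.9 CPM in *Bmpr1a*-cKO libraries 1 to 4. The lowest *Bmpr1a*-cKO library thus lay well above the highest control library, and the values rest on 33 to 53 reads per control library and 120 to 285 per *Bmpr1a*-cKO library. The mean went from 3.62 ± 1.36 to 18.3 ± 2.89 CPM (SD, n = 4), a Log2FC of 2.39 (95% interval 1.96 to 2.82, FDR 8.02e-07, edgeR). This placed *Prdm14* at rank 70 among the rises of the 14249 genes.

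*Prdm1* (chr10:44437177-44528501, minus strand), the other PR domain gene of the PGC network, was read at 14.1, 16.3, 21.4 and 13.1 CPM in control and at 19.0, 25.0, 19.4 and 23.9 CPM in *Bmpr1a*-cKO. Control library 3 reached into the *Bmpr1a*-cKO range, and the other 3 control libraries lay below it. The mean went from 16.3 ± 3.71 to 21.8 ± 3.08 CPM (SD, n = 4), and the Log2FC of 0.45 (95% interval 0.15 to 0.75, FDR 0.0239, edgeR) passed the FDR but not the fold threshold of a DEG. Its FDR rose above the threshold without control library 1 (Log2FC 0.39, FDR 0.0738), control library 4 (0.34, FDR 0.0988), *Bmpr1a*-cKO library 2 (0.38, FDR 0.0950) or *Bmpr1a*-cKO library 4 (0.40, FDR 0.0776), while without control library 3 (0.60), *Bmpr1a*-cKO library 1 (0.51) or *Bmpr1a*-cKO library 3 (0.50) it became a DEG.

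*Tfap2c* (chr2:172549593-172558622, plus strand) differed in direction from the PR domain genes. It was read at 12.6, 13.99, 22.4 and 11.6 CPM in control and at 8.70, 13.1, 10.05 and 9.89 CPM in *Bmpr1a*-cKO. Control library 3 stood above the other 7 libraries, and *Bmpr1a*-cKO library 2 lay within the control range. The control mean was 15.1 ± 4.93 CPM and the *Bmpr1a*-cKO mean 10.4 ± 1.87 CPM (SD, n = 4), with a Log2FC of -0.51 (95% interval -0.90 to -0.11), which missed the FDR threshold (0.0527, edgeR). Without control library 3 the Log2FC was -0.27 (FDR 0.163). It passed both thresholds without control library 1 (-0.58, FDR 0.0469), control library 4 (-0.63, FDR 0.0276) or *Bmpr1a*-cKO library 2 (-0.64, FDR 0.0342).

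The relatives of the determinants were read alongside them. Of 13 other PR domain genes listed, 10 were tested, and 2 passed the FDR, against 29.8% of all genes. *Prdm9*, which encodes the histone methyltransferase that sets the sites of meiotic recombination, fell from 22.1 ± 7.63 to 4.75 ± 2.85 CPM (SD, n = 4, Log2FC -2.14, FDR 7.31e-05, edgeR). *Prdm10* rose from 24.8 ± 0.573 to 29.1 ± 1.94 CPM (Log2FC 0.23, FDR 0.0284). Of the other AP-2 genes only *Tfap2a* had enough reads to be tested. It fell from 1.24 ± 0.260 to 0.401 ± 0.075 CPM (Log2FC -1.65, SE 0.33, FDR 0.00145, edgeR), with every *Bmpr1a*-cKO library below every control library, and it had at most 24 reads in a library. *Tfap2b*, *Tfap2d* and *Tfap2e* had at most 1, 1 and 7 reads in any library.

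**Figure D2:**
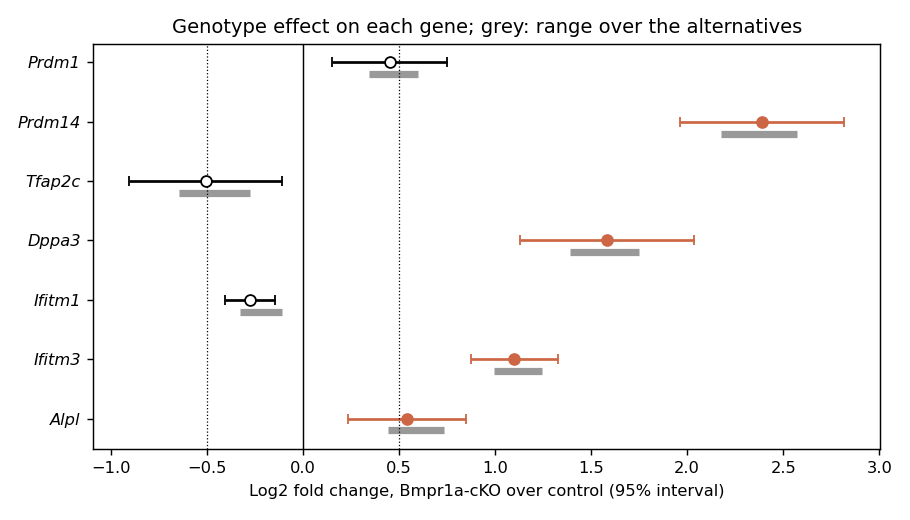
Log2FC (Bmpr1a-cKO against control, edgeR) of each early PGC gene with its 95% interval as the thin line and the range over the alternative settings as the grey bar. Filled orange points are DEGs and dotted lines mark the thresholds at -0.5 and 0.5. Prdm14 (2.39), Dppa3 (1.58) and Ifitm3 (1.10) lie above 0.5 with their whole interval, while the interval of Alpl (0.23 to 0.85) spans that line.

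*Dppa3* (chr6:122626410-122630272, plus strand), the marker of nascent PGCs, was read at 22.4, 35.3, 35.5 and 17.2 CPM in control and at 50.8, 82.2, 99.6 and 92.5 CPM in *Bmpr1a*-cKO. The groups did not overlap, although *Bmpr1a*-cKO library 1 lay well below the other 3 of its genotype. The mean rose from 27.6 ± 9.26 to 81.3 ± 21.5 CPM (SD, n = 4), a Log2FC of 1.58 (95% interval 1.13 to 2.04, FDR 5.99e-05, edgeR), at rank 152 of all rises. Of the 50-base stretches of its exons, 16.5% also occur in 3 other genes, most of them in the pseudogene *Dppa3-ps*. The counts of *Dppa3* therefore depend on how reads that match several copies were treated, whether dropped or assigned.

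The IFITM genes went in opposite directions. *Ifitm3* (chr7:141009586-141010770, minus strand) was read at 19.5, 19.4, 22.3 and 15.7 CPM in control and at 34.2, 41.2, 45.2 and 42.5 CPM in *Bmpr1a*-cKO. Every *Bmpr1a*-cKO library lay above every control library, and the mean rose from 19.2 ± 2.70 to 40.8 ± 4.69 CPM (SD, n = 4, Log2FC 1.10, 95% interval 0.87 to 1.33, FDR 2.87e-06, edgeR). *Ifitm1* (chr7:140967221-140969825, plus strand), in the same cluster on chromosome 7, was read at 151, 156, 144 and 134 CPM in control and at 116, 127, 121 and 119 CPM in *Bmpr1a*-cKO. Here every *Bmpr1a*-cKO library lay below every control library, and the mean fell from 146 ± 9.50 to 121 ± 4.43 CPM (Log2FC -0.28, 95% interval -0.40 to -0.15, FDR 0.00319, edgeR), short of the fold threshold of a DEG. *Ifitm2*, another gene of the cluster, was read at 109, 133, 113 and 114 CPM in control and at 115, 123, 117 and 125 CPM in *Bmpr1a*-cKO, with overlapping groups (Log2FC 0.036, FDR 0.731, edgeR). Of the 5 other family members listed, 3 were tested (*Ifitm2*, *Ifitm5* and *Ifitm7*). None passed the FDR with edgeR (29.8% of all genes did) or limma-voom, and none had an unadjusted p below 0.05. By contrast DESeq2, which kept more genes, called *Ifitm10* lower at no more than 18 reads per library. Between 5.02% (*Ifitm1*) and 48.5% (*Ifitm2*) of the 50-base stretches of these genes are shared with other genes, with 10.02% for *Ifitm3*.

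Other cell types of the ovary also express IFITM genes, and markers of 2 of them moved with the genotype. Of 8 listed macrophage markers 4 rose by the FDR (17.3% of all genes did). The sum of the 8 ran from 36.3 to 46.0 CPM over the control libraries and from 47.1 to 61.0 CPM over those of *Bmpr1a*-cKO. Of 8 listed pregranulosa markers 7 fell by the FDR (12.5% of all genes did). The sum of the 8 was between 1301 and 1574 CPM in control libraries and between 1111 and 1332 CPM in *Bmpr1a*-cKO libraries. No listed marker of either cell type was at 0 in all libraries. When germ cell markers rather than TMM set the scale of the libraries, no pregranulosa marker passed the FDR. Of the 8 macrophage markers, 3 were still higher by the FDR with that scale. On that scale the median Log2FC of all genes became 0.16, and *Ifitm1* lay at -0.11 (FDR 0.809). The scale was the sum of *Ddx4*, *Mael*, *Tdrd1*, *Tdrd9*, *Piwil2*, *Rnf17* and *Stk31*. With TMM, *Mael* (FDR 0.000507, edgeR) and *Tdrd9* (FDR 0.00316) were lower in *Bmpr1a*-cKO. The listed germ cell markers *Dazl* (FDR 0.00101) and *Dnd1* (FDR 0.00151) were higher and were left out of the sum. How far the results depend on this choice was not tested. The part of these cell types in the *Ifitm3* and *Ifitm1* differences was not tested.

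The start regions of the 3 abundant IFITM genes are shown because these neighbours gave 3 different results, *Ifitm3* higher, *Ifitm1* lower and *Ifitm2* not past the test. They are taken from RefSeq on GRCm38.p6 and run from 250 bases before to 50 bases after the annotated start, 5′ to 3′ on the gene's strand. Capitals mark matches to the interferon response core (GAAA, any 2 bases, GAAA) or the PRDM1 motif AGNGAAAG, searched on both strands together with the TFAP2 motif GCCNNNGGC, the PRDM14 motif GGTCTCTAA and the SMAD motif GGCGCC. The *Ifitm3* window (chr7:141010695-141010994, minus strand) holds 2 interferon cores that begin at positions 3 and 20 from the start, the *Ifitm2* window (chr7:140955912-140956211, minus strand) holds 1 interferon core and 1 PRDM1 motif before the start, and the *Ifitm1* window (chr7:140967826-140968125, plus strand) holds none of the 5 motifs.
Ifitm3: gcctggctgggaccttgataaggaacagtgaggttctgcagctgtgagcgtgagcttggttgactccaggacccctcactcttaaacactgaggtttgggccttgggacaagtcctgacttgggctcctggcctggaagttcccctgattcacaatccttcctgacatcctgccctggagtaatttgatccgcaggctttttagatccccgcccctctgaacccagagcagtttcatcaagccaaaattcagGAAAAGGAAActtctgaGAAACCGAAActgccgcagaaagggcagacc
Ifitm2: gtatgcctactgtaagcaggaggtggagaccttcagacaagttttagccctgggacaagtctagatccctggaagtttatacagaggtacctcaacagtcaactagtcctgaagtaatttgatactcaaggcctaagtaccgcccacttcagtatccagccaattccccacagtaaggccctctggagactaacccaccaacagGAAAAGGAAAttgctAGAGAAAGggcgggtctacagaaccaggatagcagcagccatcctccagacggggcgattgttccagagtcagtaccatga
Ifitm1: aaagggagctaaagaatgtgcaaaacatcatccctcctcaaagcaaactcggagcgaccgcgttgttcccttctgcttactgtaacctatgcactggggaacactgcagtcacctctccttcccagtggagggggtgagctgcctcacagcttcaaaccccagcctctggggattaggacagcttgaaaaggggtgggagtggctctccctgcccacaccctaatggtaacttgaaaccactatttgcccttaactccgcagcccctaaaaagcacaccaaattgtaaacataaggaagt
Of 32851 RefSeq promoter windows of this length, 3.44% hold the interferon core and 8.63% the PRDM1 motif. A match is a stretch of letters and not a measured binding site.

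Listed interferon-stimulated genes gave the background for a gene family that carries this name. Of 15 listed, 9 were tested, and none passed the FDR with edgeR, limma-voom or DESeq2 or had an unadjusted p below 0.05. By edgeR 29.8% of all genes passed the FDR. They included *Bst2* (35.2 ± 3.03 CPM in control against 39.1 ± 4.17 CPM, SD, n = 4), and their median Log2FC was -0.0087.

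*Alpl* (chr4:137741733-137796384, minus strand) was read at 51.5, 46.4, 77.1 and 45.2 CPM in control and at 64.3, 77.2, 89.1 and 87.3 CPM in *Bmpr1a*-cKO. Control library 3 lay within the *Bmpr1a*-cKO range, and the other 3 control libraries lay below it. The mean rose from 55.0 ± 14.9 to 79.5 ± 11.4 CPM (SD, n = 4), with a Log2FC of 0.54 (95% interval 0.23 to 0.85, FDR 0.0104, edgeR), just past the fold threshold. It fell below that threshold without control library 2 (0.46), control library 4 (0.44), *Bmpr1a*-cKO library 3 (0.48) or *Bmpr1a*-cKO library 4 (0.48), with an FDR of at most 0.0481. The other alkaline phosphatase genes were nearly silent, *Alpi* and *Akp3* with 0 reads in every library and *Alppl2* with at most 2, so that *Alpl* was the alkaline phosphatase gene read in these ovaries. Listed markers of the mesonephros, the neighbouring kidney tissue, summed to 208 to 250 CPM in control and 204 to 228 CPM in *Bmpr1a*-cKO libraries. Most of the control sum came from *Emx2* (mean 119 CPM), *Krt8* (58.5) and *Epcam* (21.2). The control mean of *Pax8* was 15.3 CPM, and those of *Pax2*, *Cdh16*, *Lhx1* and *Wfdc2* were 1.37, 1.17, 1.47 and 3.17 CPM. The sums therefore do not measure how much mesonephros was present. By the FDR 1 of the 8 was higher (17.3% of all genes were) and 2 were lower (12.5% of all genes were). The higher one, *Epcam*, went from a mean of 21.2 to 52.4 CPM within these sums and is also among the PGC survival and migration genes below. Every other mesonephros marker had a negative Log2FC, and *Emx2* (-0.26) and *Krt8* (-0.34) passed the FDR. The part of the mesonephros in the *Alpl* result was not tested.

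The start region of the upstream *Alpl* promoter (chr4:137796335-137796634, minus strand, RefSeq on GRCm38.p6) is shown because it holds matches to the motifs of 2 of the determinants and of the BMP effectors in 1 window. From its 5′ end the capitals mark a PRDM1 motif 146 bases before the start, the SMAD motif 66 bases before it, and 3 TFAP2 motifs 40, 20 and 5 bases before it, none of which overlap.
Alpl: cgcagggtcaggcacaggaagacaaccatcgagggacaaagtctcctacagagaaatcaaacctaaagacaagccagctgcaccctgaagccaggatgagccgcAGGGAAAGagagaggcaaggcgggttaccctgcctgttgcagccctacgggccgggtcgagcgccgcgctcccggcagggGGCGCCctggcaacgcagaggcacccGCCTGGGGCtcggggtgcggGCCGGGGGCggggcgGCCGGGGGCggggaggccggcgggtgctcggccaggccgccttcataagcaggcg
The TFAP2 motif occurs in 16.6% of all promoter windows and the SMAD motif in 11.9%, and with 70.0% G and C this window is rich in the letters that make up both. The second *Alpl* promoter holds 1 PRDM1 motif, and the *Prdm1* window holds none of the 5 motifs. The PRDM14 motif, present in 0.256% of all windows, occurred in none of these.

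Levels were compared between genes as CPM per kb of annotated exon. In control ovaries *Ifitm1* was by far the most abundant, at 134 ± 8.68 CPM per kb (SD, n = 4), above 99.1% of 13985 genes. *Dppa3* (30.9 ± 10.4) and *Ifitm3* (28.3 ± 3.98) followed with overlapping ranges and no fixed order between libraries, then *Alpl* (13.6 ± 3.71). These levels depend on the length used. With the longest transcript in place of all annotated exons, the control mean was 166 CPM per kb for *Ifitm1* and 21.8 for *Alpl*. The determinants were the scarcest, with *Tfap2c* at 4.12 ± 1.34, *Prdm1* at 2.91 ± 0.664 and *Prdm14* at 1.41 ± 0.532 CPM per kb. The ranges of *Tfap2c* and *Prdm1* overlapped, although *Tfap2c* was the higher in each of the 4 control libraries.

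In *Bmpr1a*-cKO ovaries the 4 early markers kept this order of means, and the 3 determinants did not. *Dppa3* reached 91.1 ± 24.1 CPM per kb and overlapped in range with *Ifitm1*, which stood at 110.5 ± 4.04, and with *Ifitm3*, which stood at 60.2 ± 6.92. *Alpl* lay at 19.7 ± 2.83 CPM per kb. Among the determinants the order of the means turned over, from *Tfap2c*, *Prdm1*, *Prdm14* in control to *Prdm14* (7.15 ± 1.13), *Prdm1* (3.91 ± 0.552), *Tfap2c* (2.84 ± 0.508) in *Bmpr1a*-cKO. *Prdm14* moved from above 18.8% to above 54.3% of all genes on this scale. The ranges of *Prdm1* and *Tfap2c* overlapped again, with *Prdm1* now the higher in each of the 4 libraries. With the longest transcript as the length, the *Bmpr1a*-cKO means were 137 CPM per kb for *Ifitm1*, 31.5 for *Alpl* and 3.50 for *Tfap2c*. The order of the 7 means was kept in both genotypes.

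**Figure D3:**
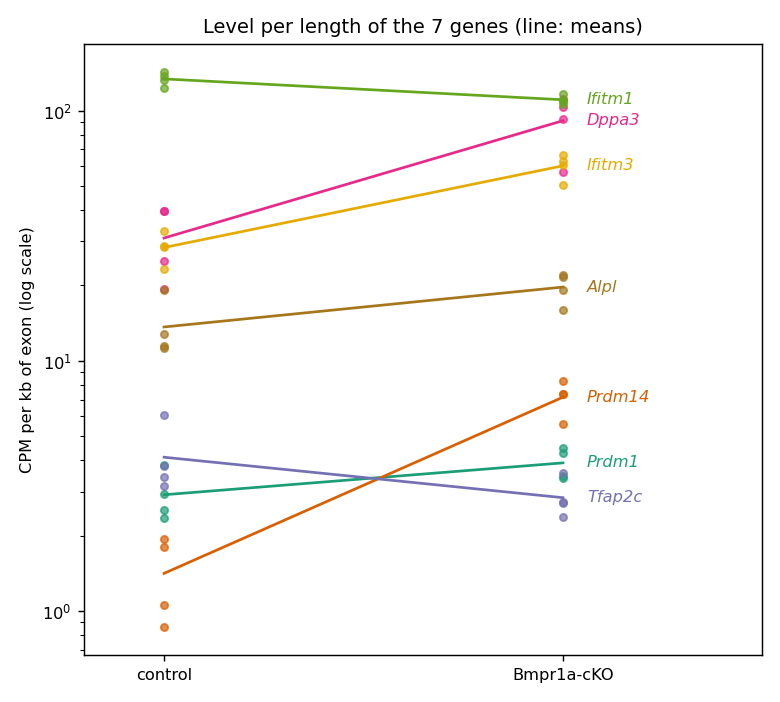
Level per exon length (CPM per kb, log axis) of the 7 early PGC genes in each library, 1 point per library, with lines joining the control and Bmpr1a-cKO means. Prdm14 is the lowest gene in every control library and lies above Prdm1 and Tfap2c in every Bmpr1a-cKO library, while Ifitm1 lies above 99.1% of all genes by its control mean and above 98.7% by its Bmpr1a-cKO mean.

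The 7 genes shared a pattern within each genotype. Control library 4 was the lowest of the controls for 7 of 7 genes, against 23.8% of all genes, and control library 3 was the highest for 6 of 7, against 28.9% of all genes, *Ifitm1* being the exception. *Bmpr1a*-cKO library 1 was the lowest of its genotype for 7 of 7 genes, against 34.0% of all genes. The same libraries held the lowest and highest control level of *Ddx4* (121 CPM in library 4 and 168 CPM in library 3) and its lowest *Bmpr1a*-cKO level (106 CPM in library 1). This match did not extend to the highest *Bmpr1a*-cKO level of *Ddx4*, which was in library 4 (179 CPM). That library was the highest of its genotype for 0 of 7 genes, library 2 for 4 and library 3 for 3. The spread between control libraries ran from a coefficient of variation of 6.49% for *Ifitm1* to 37.7% for *Prdm14*.

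Because the libraries differed in their germ cell transcripts, each gene was also taken as a ratio to *Ddx4* in the same library and compared by an exact two-sided permutation test, whose smallest possible p with 4 against 4 libraries is 0.0286. The p-values were adjusted over 28 such tests, the 7 ratios and the 21 pairs described below. Relative to *Ddx4*, *Prdm14* was 4.78-fold, *Dppa3* 2.79-fold, *Ifitm3* 1.99-fold and *Alpl* 1.38-fold higher in *Bmpr1a*-cKO, and *Tfap2c* lay at 0.665 of the control ratio. The groups of these 5 ratios did not overlap, and each had an adjusted p of 0.0348 (exact permutation test, n = 4 per genotype). The share of all genes without overlap was computed for CPM (27.9%) and not for ratios to *Ddx4*, so this count has no background.

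For *Tfap2c* the groups overlapped in CPM but not as a ratio. It stood at 0.0996, 0.0934, 0.134 and 0.0976 of the *Ddx4* level in control and at 0.0836, 0.0793, 0.0641 and 0.0561 in *Bmpr1a*-cKO. Every *Bmpr1a*-cKO library lay below every control library. With the sum of 7 germ cell markers in place of *Ddx4*, however, the difference in the log2 ratio of *Tfap2c* was -0.34 rather than -0.59 (adjusted p = 0.224, exact permutation test, n = 4). That sum holds *Mael* (Log2FC -0.80) and *Tdrd9* (-0.63), which fell, and leaves out *Dazl* (0.63) and *Dnd1* (0.78), which rose. How far the ratio depends on this choice of markers was not tested.

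For *Prdm1* the ratio to *Ddx4* was 0.112, 0.109, 0.128 and 0.110 in control and 0.180, 0.151, 0.122 and 0.134 in *Bmpr1a*-cKO, a log2 difference of 0.34 with overlapping groups (adjusted p = 0.0667, exact permutation test, n = 4). Only *Bmpr1a*-cKO library 3 lay within the control range. For *Ifitm1* the control ratios spanned 0.858 to 1.18 and the *Bmpr1a*-cKO ratios 0.664 to 1.10, with a log2 difference of -0.37 (adjusted p = 0.0923, exact permutation test, n = 4).

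**Figure D4:**
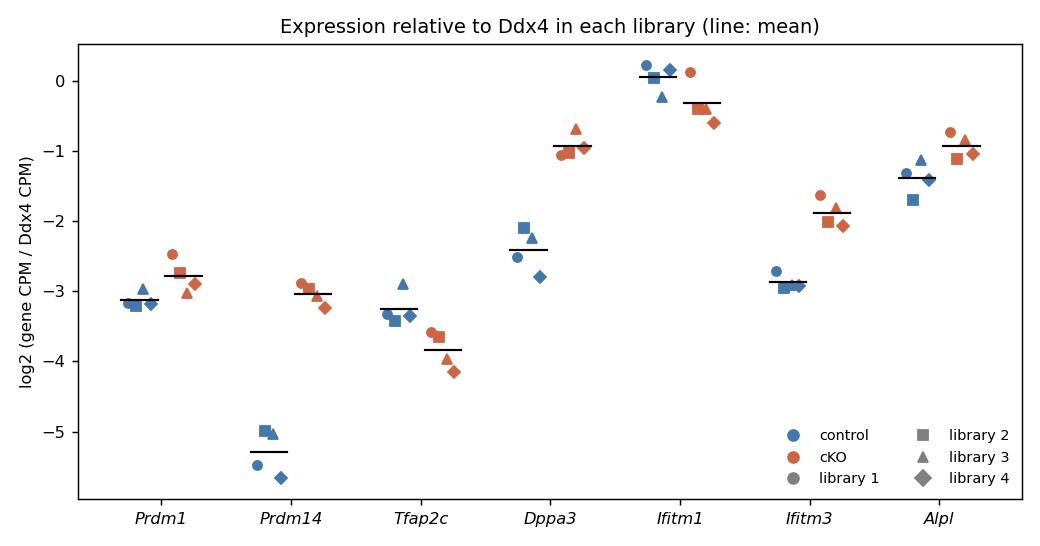
Log2 ratio of the CPM of each early PGC gene to the CPM of Ddx4 in the same library, 1 point per library, with a bar at the mean of each genotype. The control and Bmpr1a-cKO points are apart for Prdm14, Dppa3, Ifitm3, Alpl and Tfap2c, and they overlap for Prdm1 and Ifitm1.

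Whether 2 of the genes changed by different amounts was tested on their ratio in each library. Of the 21 pairs 18 differed between the genotypes (adjusted p = 0.0348 each, exact permutation test, n = 4). All 18 stood at the smallest p this test allows, and the pairs share the same 7 genes, so they are not separate results. The share among pairs of other genes was not computed. The widest gap was between *Prdm14* and *Tfap2c*, whose ratio was 7.19-fold higher in *Bmpr1a*-cKO (log2 difference 2.85). The other determinant pairs differed as well, *Prdm1* to *Prdm14* by -1.91 and *Prdm1* to *Tfap2c* by 0.93 on the log2 scale. *Ifitm1* to *Ifitm3* differed by -1.36, and *Prdm14* to *Dppa3*, the 2 genes with the highest Log2FC, by 0.78. The 3 pairs without a difference past the threshold were *Prdm1* to *Alpl* (-0.12, adjusted p = 0.457), *Tfap2c* to *Ifitm1* (-0.22, adjusted p = 0.444) and *Dppa3* to *Ifitm3* (0.49, adjusted p = 0.0923), each by the exact permutation test with n = 4, and at this n a missed threshold does not show equal change.

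**Figure D5:**
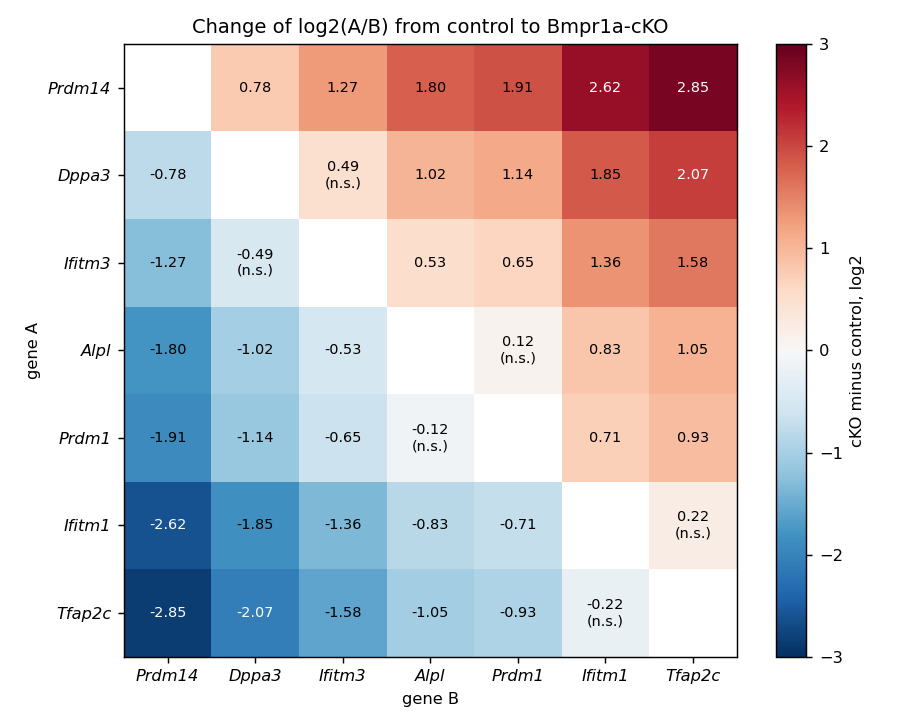
Change in the log2 ratio of each pair of early PGC genes (row gene over column gene, mean in Bmpr1a-cKO minus mean in control) as a colour and a printed value, with n.s. where the adjusted p of the exact permutation test was not below 0.05. The largest value is 2.85 for Prdm14 over Tfap2c, and 3 of the 21 pairs are marked n.s.

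The signals that act upstream of these genes in the embryo gave no DEG. Of 16 listed genes for BMP and WNT ligands, receptors, SMADs and early mesoderm factors, 10 were tested. By the FDR 2 rose (17.3% of all genes did) and 2 fell (12.5% of all genes did). None of the 10 passed the FDR when germ cell markers set the scale. *Acvr1*, a type I BMP receptor, went from 31.0 ± 0.897 to 37.1 ± 2.01 CPM (SD, n = 4, Log2FC 0.26, FDR 0.00937, edgeR), and *Smad1*, a BMP effector, from 32.7 ± 2.34 to 39.0 ± 4.07 CPM (Log2FC 0.26, FDR 0.0277). *Bmp2*, a BMP ligand, went from 52.6 ± 2.24 to 41.6 ± 4.22 CPM (Log2FC -0.35, FDR 0.00307, edgeR), and *Smad9* from 8.76 ± 0.299 to 6.55 ± 1.51 CPM (Log2FC -0.45, FDR 0.0387). The specification signals *Bmp8b*, *Wnt3* and *Fgf8* and the factors *T*, *Eomes* and *Otx2* had 3 to 16 reads in their deepest library and were not tested.

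The partners and regulated genes of the determinants included several pluripotency factors. All 18 listed were tested, 10 rose by the FDR (17.3% of all genes did) and none fell. Of the 10, 7 were DEGs (6.11% of all genes were higher DEGs), and the list median was 0.28. When germ cell markers set the scale, 8 rose and none fell. The largest rises were in the pluripotency factors *Nanog*, from 5.47 ± 1.64 to 16.1 ± 2.45 CPM (SD, n = 4, Log2FC 1.59, FDR 9.78e-06, edgeR), and *Esrrb*, from 12.02 ± 4.29 to 29.1 ± 4.26 CPM (Log2FC 1.31). They were followed by *Tet1*, which encodes a DNA demethylation enzyme (0.88), *Sox2* (0.80) and *Klf2* (0.79). The other listed genes moved less. *Prmt5*, an arginine methyltransferase that binds PRDM1, went from 69.0 ± 1.85 to 90.3 ± 4.76 CPM (Log2FC 0.39, FDR 0.000196, edgeR), and *Cbfa2t2*, a co-repressor that binds PRDM14, from 103.5 ± 3.88 to 119.5 ± 6.50 CPM (Log2FC 0.21, FDR 0.0145). Also listed, *Cbfa2t3* (Log2FC -0.31, FDR 0.0879, edgeR), *Ehmt1* (-0.033, FDR 0.747) and *Ehmt2* (0.030, FDR 0.774) did not pass the FDR.

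Of 13 listed genes for PGC survival and migration, 12 were tested, 7 rose by the FDR (17.3% of all genes did) and none fell. Of these 7, 5 were DEGs (6.11% of all genes were higher DEGs), and the list median was 0.35. The adhesion genes *Cdh1* (E-cadherin), from 9.76 ± 2.72 to 59.9 ± 8.90 CPM (SD, n = 4, Log2FC 2.64, FDR 1.88e-08, edgeR), and *Epcam*, from 21.2 ± 5.47 to 52.4 ± 9.41 CPM (Log2FC 1.33), rose most. *Kit*, the receptor of the survival factor KITL (0.80), and the RNA-binding genes *Dnd1* (0.78) and *Nanos3* (0.76) followed. The ligand gene *Kitl*, expressed by somatic cells, had a Log2FC of -0.13 (FDR 0.290, edgeR), and the migration receptor gene *Cxcr4* one of -0.027 (FDR 0.892). Both lists were compiled with results of these libraries known, so their direction is no independent evidence.

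Finally, for each gene the 3 genes tested with the most similar profile over the 8 libraries were found, as the root-mean-square distance between log2 CPM values after each gene was centred on its mean. *Prdm14* was nearest to *Usp26* (0.200), *Mup6* (0.210) and *Ttc34* (0.215). *Dppa3* was nearest to *Epcam* (0.206), *Arfgef3* (0.206) and *Gm9* (0.208), and *Ifitm3* to *Pmm1* (0.0780), *Lrp11* (0.0846) and *Dennd2c* (0.0897). *Ifitm1* lay nearest to *Helq* (0.0491), *Tmem231* (0.0520) and *S100a10* (0.0531), *Alpl* to *Tmem8* (0.104), *Ptpn6* (0.110) and *Arrb2* (0.117), *Prdm1* to *Ccdc117* (0.114), *Snhg14* (0.118) and *Syt5* (0.119), and *Tfap2c* to *P2rx1* (0.147), *C2cd4c* (0.153) and *Cmpk2* (0.171). No early PGC gene was among the nearest 3 of another. Between the 7 genes the closest profiles were *Prdm1* and *Alpl* (0.189), and the farthest were *Prdm14* and *Tfap2c* (1.44).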

How the data were processed

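RNA was sequenced from 4 control and 4 *Bmpr1a*-cKO pools of E14.5 ovaries with a strand-specific kit. The authors trimmed reads with Trimmomatic 0.39, mapped them to mm10 with STAR 2.5.2 and deposited unnormalized read counts per gene symbol. The annotation and the strand setting of the counting are not given in the sources used here. A deposited CPM table with 8 per-library columns was not used.

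Counts were analysed in R 4.3.3 with edgeR 4.0.16 (filterByExpr, TMM, quasi-likelihood test, Benjamini-Hochberg adjustment), with limma 3.58.1 and DESeq2 1.42.0 as alternatives. Genotype was the sole term of the model, and no library was left out. Log2 CPM and ratios carried a prior count of 2. Other scalings, low-count filters, thresholds, germ cell marker scaling, a replicate term and leaving out each library were also tried. The code was tested on simulated counts. Replicate pairs differed by a chi-square of 3.15 to 9.42 per gene, so none was a duplicate. Floors cover counting error only. Exon lengths and gene positions came from GENCODE vM21 (mm10), matched by symbol for 24374 of 25239 symbols, and promoters from RefSeq, which matched 4 of the 7 genes (not *Prdm14*, *Tfap2c* or *Dppa3*).

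The 7 genes and all lists were chosen with earlier results of these data known. Named genes are the 7, up to 5 genes per list with FDR below 0.05 by absolute Log2FC, relatives of the 7 genes, and the 3 nearest profiles. *Prmt5*, *Cbfa2t2*, *Cbfa2t3*, *Ehmt1*, *Ehmt2*, *Bst2*, *Kitl* and *Cxcr4*, the mesonephros markers and the untested signalling genes were named after their values were seen. Of the 10 listed germ cell markers 2 were higher and 2 lower by the FDR, against 17.3% and 12.5% of all genes. Of 8 endothelial markers 1 was higher, and of 8 erythroid markers 1 was lower with 4 at 0 throughout. Of 8 stromal markers none passed in edgeR (29.8% of all genes did), limma-voom or DESeq2 or had an unadjusted p below 0.05.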

Additional observations from a re-analysis of the deposited data

Results flagged for a closer look

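The ratio of *Prdm1* to *Ddx4* in control library 3 stood apart from the other 3 control libraries. Its log2 ratio was -2.96, the next highest was -3.16, and the gap took up 0.830 of the range of the 4 values, just past the 95% limit of Dixon's test. Such a limit flags about 1 in 20 groups by chance, and 28 groups of 4 were examined here. Without this library the log2 difference in the ratio between the genotypes was 0.40, against 0.34 with it.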

How the results depend on the processing

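The direction of all 7 Log2FC values was kept under each of the 17 alternatives tried, and *Prdm14*, *Dppa3* and *Ifitm3* were DEGs in all 17, *Alpl* in 11, *Tfap2c* in 6, *Prdm1* in 4 and *Ifitm1* in none of those that kept the fold threshold. *Tfap2c* passed both thresholds with DESeq2 (-0.54, FDR 0.0321), with library size scaling (-0.56) and without a low-count filter (-0.51). *Alpl* lost its call with DESeq2 (0.52, FDR 0.0597) and with library size scaling (0.49). Scaling to the 7 germ cell markers named above, without the higher *Dazl* and *Dnd1*, made *Prdm1* a DEG (0.60) and moved *Tfap2c* to -0.35 (FDR 0.343). This scaling gave 1168 higher and 256 lower DEGs in place of 871 and 578. With no fold threshold 4242 genes passed, *Prdm1* (0.45) and *Ifitm1* (-0.28) among them. With the sum of the same 7 germ cell markers in place of *Ddx4*, the ratio of *Prdm1* differed by 0.59 (adjusted p = 0.0348, exact permutation test) and that of *Tfap2c* by -0.34 (adjusted p = 0.224). The cause was not tested. On leaving out 1 library at a time the Log2FC ran from 0.34 to 0.60 for *Prdm1*, -0.64 to -0.27 for *Tfap2c* and 0.44 to 0.74 for *Alpl*, and 1288 to 1627 genes were DEGs. Same-numbered libraries deviated together with correlations of 0.198, 0.161, 0.108 and -0.087, and 2 of 4 correlated best with their own number. Since 1 of the 4 pairs was not above 0.1 and the labels tie the numbers to nothing shared, the numbers were not taken as pairs. With a replicate block 1457 genes were DEGs (1449 without), and no early PGC gene gained or lost its DEG call, but the FDR of *Tfap2c* went from 0.0527 to 0.0171 (Log2FC -0.49), so that all 7 genes passed the FDR alone. Depth limits *Tfap2a*, *Ifitm5* and *Ifitm7*, which had at most 25 reads in a library.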
